A study of Mus musculus with 12 samples.

Results

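The genes described are 35 translation initiation factor genes of the mouse that lie outside the octamer core of eIF3, the largest of the initiation factors. They were taken by symbol from the 53351 gene rows of a polysome profiling table, and all 35 were found. The labels give primary cortical progenitor cells of wild-type mouse embryos at E13.5, grown overnight in bFGF and EGF at 5 ng/ml each. Torin1, which blocks the kinase mTOR, was then given at 250 nM for 2 hours, or the solvent DMSO in its place. All cultures, controls included, also received 100 µg/ml cycloheximide for 5 minutes before lysis, which holds ribosomes on their mRNA. The labels give 4 groups of 3 biological replicates: polysome mRNA after Torin1, polysome mRNA after DMSO, total mRNA after Torin1 and total mRNA after DMSO. Total mRNA was the 10% of a lysate kept as input, and polysome mRNA came from the fractions of a sucrose gradient with more than 3 ribosomes per mRNA.

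Initiation factors place the small ribosomal subunit and the initiator tRNA on the start codon of an mRNA. eIF4E binds the cap, eIF4G holds the complex together, eIF4A unwinds the leader, eIF2 brings the tRNA and eIF2B recharges eIF2 with GTP. eIF1 and eIF1A guide the search for the start codon, and eIF5 and eIF5B act at start codon choice and joining of the large subunit. mTOR acts on this machinery through the eIF4E-binding proteins and the S6 kinases, and mRNAs that begin with a C followed by a run of pyrimidines are known to leave polysomes when mTOR is inhibited.

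Because of that rule on leaders, the DNA around the annotated start is shown for the members that changed after Torin1 and for others with pyrimidine runs. Each window holds 30 bases before the start and 20 bases from it, in RefSeq's annotation of GRCm38.p6, written 5′ to 3′ on the gene's strand. Capitals mark runs of at least 6 C or T that begin with C and lie wholly within 20 bases either side of the start, searched on that strand alone.
Eif4b (chr15:102073743-102073792, plus strand): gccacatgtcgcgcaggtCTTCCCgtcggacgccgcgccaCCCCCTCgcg
Eif1ad (chr19:5366783-5366832, plus strand): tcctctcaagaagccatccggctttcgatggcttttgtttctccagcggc
Eif4a3 (chr11:119300024-119300073, minus strand): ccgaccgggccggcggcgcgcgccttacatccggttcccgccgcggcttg
Eif2b2 (chr12:85219451-85219500, plus strand): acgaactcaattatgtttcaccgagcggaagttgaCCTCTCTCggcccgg
Eif4e2 (chr1:87213881-87213930, plus strand): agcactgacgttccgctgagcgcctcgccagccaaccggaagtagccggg
Eif2b5 (chr16:20498787-20498836, plus strand): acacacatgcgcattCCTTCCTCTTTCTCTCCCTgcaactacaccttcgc
Eif2s3x (chrX:94212632-94212681, minus strand): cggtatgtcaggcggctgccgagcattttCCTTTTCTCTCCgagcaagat
Eif3f (chr7:108934385-108934434, plus strand): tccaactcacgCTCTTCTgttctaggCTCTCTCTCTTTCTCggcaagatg
The first 5 are the members past the test in a Torin1 comparison, Eif2b5 and Eif2s3x are members with long runs that did not pass it, and Eif3f is a subunit of the eIF3 core set beside them. Eif4e2 has 3 listed starts, of which the first is shown, and none of them holds a run. Of the 29 members with a listed start, 6 held a run at 1 or more of their starts, which is 20.7%, against 30.4% of 27025 genes. The 6 were Eif4e, Eif2b2, Eif4b, Eif2b5, Eif4g1 and Eif2s3x. Among the eIF3 core subunits, 3 of 6 with a listed start held one, namely Eif3f, Eif3l and Eif3m. In the polysome association described below, Eif3f passed as lower (-1.23), and Eif3l (-0.16) and Eif3m (-0.45) were below 0 but did not pass. Among those without a counted run, Eif3k also passed as lower (-0.64), while Eif3a (0.50) and Eif3c (0.15) were above 0 and did not pass. The Eif3k window, not shown, ends in a stretch of C and T that begins with C and reaches its last base. That stretch did not count as lying wholly within the searched bases. A relation of runs to the changes after Torin1 was not tested. Annotated starts may differ from the starts used in these cells, so the letters describe the annotation and not the mRNA ends.

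The deposited values are an abundance signal of unknown depth in reads, with column totals of 14341674 to 19201406. They were rescaled between libraries by a trimmed mean of log ratios and are given here as ppm (parts per 1000000) of the rescaled library, so every level is a share of its library. Levels are not divided by gene length and are compared within a gene, not between genes. Folds are differences of log2(scaled value + 1) with their SE from limma, fitted over all 12 libraries, and a gene passed where its Benjamini-Hochberg adjusted p over 20240 genes was below 0.05. The summed level of the 35 members was 9788 to 11590 ppm in polysome Torin1 libraries, 11100 to 11590 ppm in polysome DMSO libraries, 7036 to 7353 ppm in total Torin1 libraries and 7403 to 7485 ppm in total DMSO libraries. Progenitor markers were present in all libraries, with Sox2 at 102 to 128 ppm and Vim at 1138 to 1753 ppm after Torin1, against 88.9 to 110 ppm and 1029 to 1145 ppm after DMSO. Neuron markers were also present, with Tubb3 at 892 to 1430 ppm after Torin1 and 964 to 1444 ppm after DMSO. These genes are examples of presence and do not stand for the movement of their lists. In total mRNA the log2 folds after Torin1 ran from -0.14 to 0.64 over 8 progenitor markers, 7 of them positive. Over 5 neuron markers they ran from -0.10 to 0.22, 4 of them positive.

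After 2 hours of Torin1 the total mRNA of 3 of the 35 members changed. Eif4b rose, and Eif1ad and Eif4a3 fell. Of all genes tested, 7.39% passed in the same comparison, 3.04% higher and 4.35% lower. The median log2 fold of the 35 members was -0.09, against -0.01 over all genes tested, and the members ranged from -0.37 to 0.36. Over expressed genes alone (mean log2 ppm of at least 3) the median was -0.06. Without adjustment, 5 members had a p under 0.05, which adds Eif2a and Eif6, against 21.4% of all genes tested.

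Eif4b encodes a cofactor that stimulates the helicase eIF4A and is itself a substrate of S6 kinase. The gene lies on chromosome 15 from 102073773 to 102097173 (GRCm38). It stood at 189, 181 and 187 ppm in the total Torin1 libraries, against 147, 143 and 143 ppm in the total DMSO libraries. Every total Torin1 library was above every total DMSO library. The log2 fold was 0.36 ± 0.06 (SE, n = 3 each) with a limma adjusted p of 0.00295. Eif4b was called in each of the 6 fits that left out 1 total library, but not with column totals alone (adjusted p = 0.0513) or with values as deposited (adjusted p = 0.398), where its fold was 0.34 and 0.25.

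Eif1ad, whose protein carries an eIF1A-like domain and in human cells takes part in the late maturation of the small ribosomal subunit, lies on chromosome 19 from 5366813 to 5371518. It stood at 23.4, 24.2 and 22.9 ppm in the total Torin1 libraries, against 30.4, 29.9 and 30.9 ppm in the total DMSO libraries. Every Torin1 library was below every DMSO library. The log2 fold was -0.37 ± 0.06 (limma adjusted p = 0.0052), and the call held in each fit without 1 library and with column totals alone, but not with values as deposited (adjusted p = 0.063).

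Eif4a3, the helicase at the heart of the exon junction complex, stood at 155, 145 and 147 ppm in total Torin1 libraries, against 177, 180 and 185 ppm in total DMSO libraries. All Torin1 values were lower, by a log2 fold of -0.28 ± 0.06 (limma adjusted p = 0.0192). This call was lost in 5 of the 6 fits without 1 total library, all but the fit without total Torin1 replicate 1, with a highest adjusted p of 0.0805 without total DMSO replicate 3. The fold stayed between -0.31 and -0.26 in those fits.

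**Figure D1:**
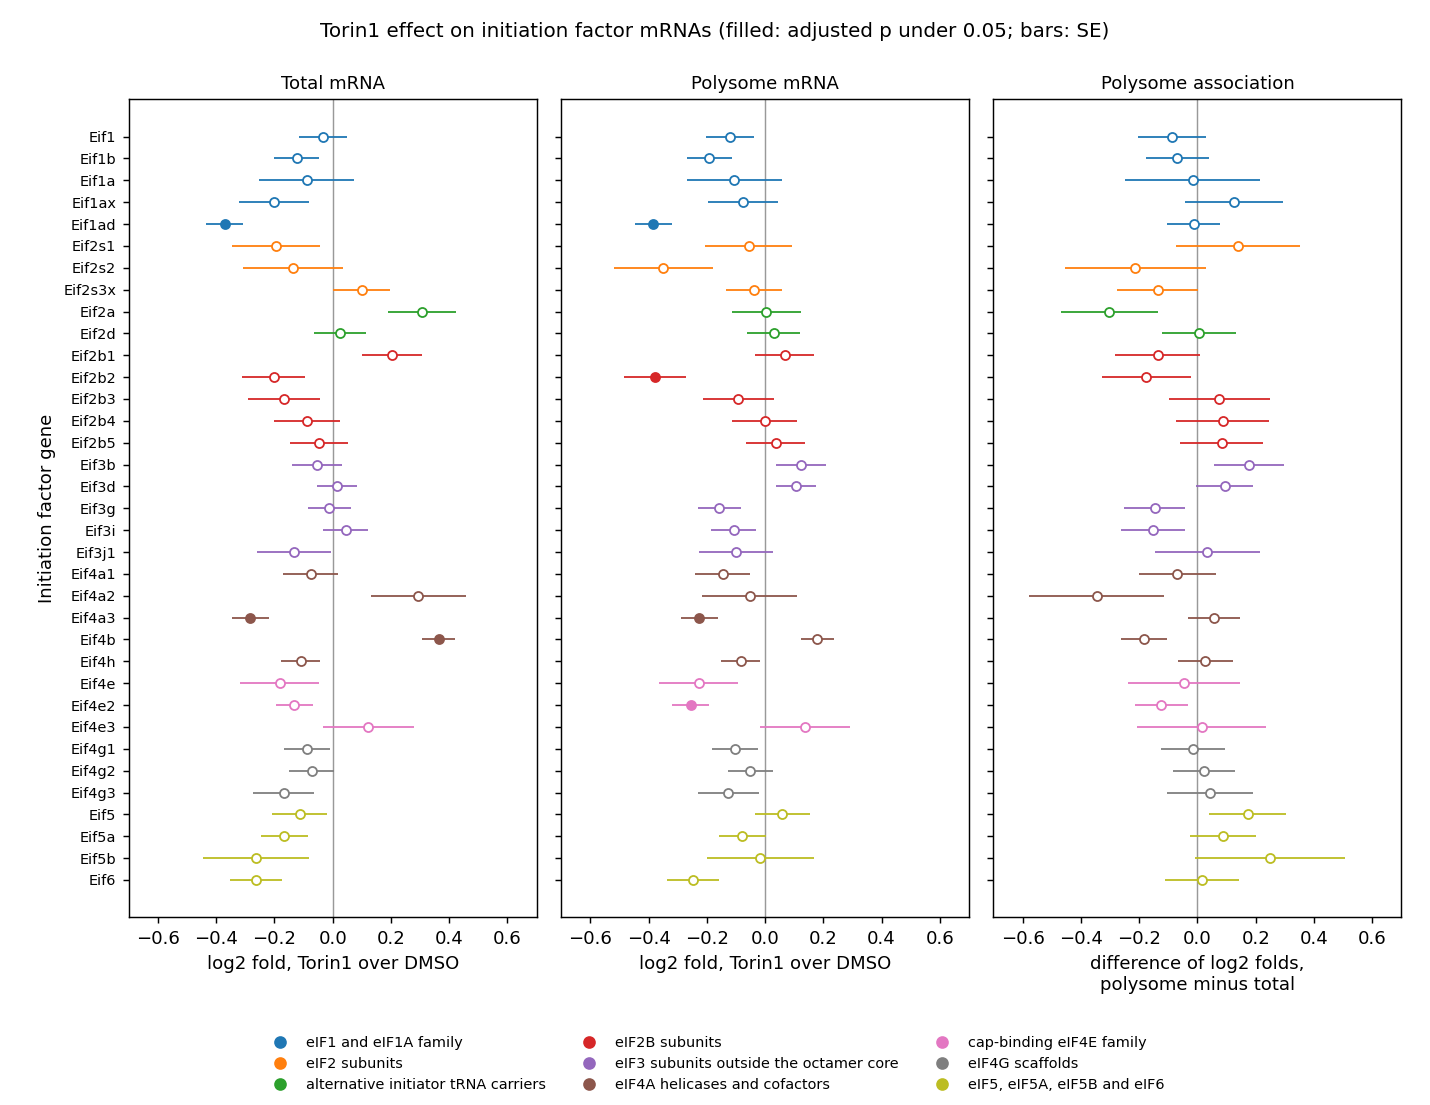
The log2 fold of each member after Torin1 over DMSO is plotted on the x axis for total mRNA, polysome mRNA and their difference, with members down the y axis coloured by family and bars showing the SE. Filled points passed the adjusted p threshold of 0.05: Eif4b to the right of 0 and Eif1ad and Eif4a3 to the left in total mRNA, and Eif1ad, Eif2b2, Eif4a3 and Eif4e2 to the left in polysome mRNA, with no filled point in the difference.

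The other 32 members did not pass in total mRNA, though their libraries often separated. In 20 of the 35 members the Torin1 and DMSO libraries of total mRNA did not overlap, 4 higher and 16 lower, against 33.4% of all genes tested (14.7% higher and 18.7% lower). The 4 higher were Eif2a, Eif2s3x, Eif4a2 and Eif4b. Eif4a2, a close relative of the general helicase Eif4a1, stood at 467, 459 and 472 ppm after Torin1 and at 375, 384 and 381 ppm after DMSO in total mRNA. Its replicates were close in total mRNA and far apart in polysome mRNA, and the shared spread gave an adjusted p of 0.336. Eif2a, which encodes an initiator tRNA carrier distinct from the eIF2 complex, stood at 51.7, 54.5 and 55.8 ppm after Torin1 and at 43.5, 42.5 and 44.8 ppm after DMSO. Its adjusted p was 0.15 for a log2 fold of 0.31 ± 0.12. Fitted on the total libraries alone, 13.1% of all genes passed (4.96% higher and 8.16% lower) and 8 members did: Eif2a, Eif4a2 and Eif4b higher, and Eif1ad, Eif2s2, Eif4a3, Eif5a and Eif6 lower.

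Among the 16 lower members, all 4 of the group acting late or on the large subunit were present, as were all 3 eIF4G scaffolds. Eif6 keeps the large subunit apart from the small one, and it stood at 72.4, 62.9 and 68.1 ppm in total Torin1 libraries, against 81.9, 82.2 and 79.5 ppm in total DMSO libraries (log2 fold -0.26 ± 0.09, limma adjusted p = 0.105). Eif5a, the hypusine-carrying factor that aids elongation, stood at 784, 722 and 758 ppm after Torin1 and at 859, 852 and 827 ppm after DMSO. Eif5b, the GTPase of subunit joining, stood at 39.9, 35.2 and 30.4 ppm after Torin1 and at 42.9, 40.5 and 42.5 ppm after DMSO. None of these passed the test.

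In polysome mRNA 4 members fell after Torin1 and none rose. They were Eif1ad, Eif2b2, Eif4e2 and Eif4a3, and 10.0% of all genes passed in this comparison, 4.57% higher and 5.45% lower. The median log2 fold of the members was -0.08, against 0.00 over all genes tested, with a range from -0.38 to 0.18. Over expressed genes alone the median was -0.04. At an unadjusted p under 0.05 there were 7 members, which adds Eif1b, Eif4b and Eif6, against 24.1% of all genes tested.

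Eif1ad stood at 38.4, 34.3 and 37.8 ppm in polysome Torin1 libraries, against 49.5, 46.8 and 47.6 ppm in polysome DMSO libraries. The log2 fold of -0.38 ± 0.06 (limma adjusted p = 0.00266) was close to that in total mRNA, and all 6 fits without 1 polysome library kept the call. Eif1ad was the only member called in the same direction in both mRNA fractions in every one of those fits. Its polysome call was lost with column totals alone, with values as deposited and with the polysome libraries fitted alone.

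Eif2b2, the beta subunit of the exchange factor eIF2B, stood at 198, 167 and 190 ppm in polysome Torin1 libraries, against 212, 242 and 267 ppm in polysome DMSO libraries. The ranges did not overlap, but the spread within DMSO was wide. The log2 fold was -0.38 ± 0.11 (limma adjusted p = 0.0464), and 4 of 6 fits without 1 polysome library lost the call, those without replicate 2 or 3 of either treatment. Its highest adjusted p was 0.173, without polysome DMSO replicate 3.

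Eif4e2, a cap-binding relative of eIF4E known as a repressor of translation, stood at 140, 122 and 137 ppm in polysome Torin1 libraries, against 163, 162 and 152 ppm in polysome DMSO libraries. Its log2 fold was -0.26 ± 0.06 (limma adjusted p = 0.0271), and the call was lost without polysome DMSO replicate 1, polysome DMSO replicate 2 or polysome Torin1 replicate 2, with a highest adjusted p of 0.097. Eif4a3 stood at 218, 202 and 192 ppm after Torin1 and at 227, 241 and 246 ppm after DMSO in polysome mRNA. Its log2 fold was -0.23 ± 0.06 (limma adjusted p = 0.0417), and 5 of 6 fits lost the call, all but the fit without polysome Torin1 replicate 1, with a highest adjusted p of 0.144.

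Eif4b, the member that rose in total mRNA, stood at 138, 143 and 143 ppm in polysome Torin1 libraries, against 124, 132 and 118 ppm in polysome DMSO libraries. Those libraries did not overlap either, and the log2 fold was 0.18 ± 0.06 with a limma adjusted p of 0.0668. It was 1 of 5 members whose polysome libraries did not overlap, the other 4 being the called ones, against 24.0% of all genes tested (11.7% higher and 12.3% lower).

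**Figure D2:**
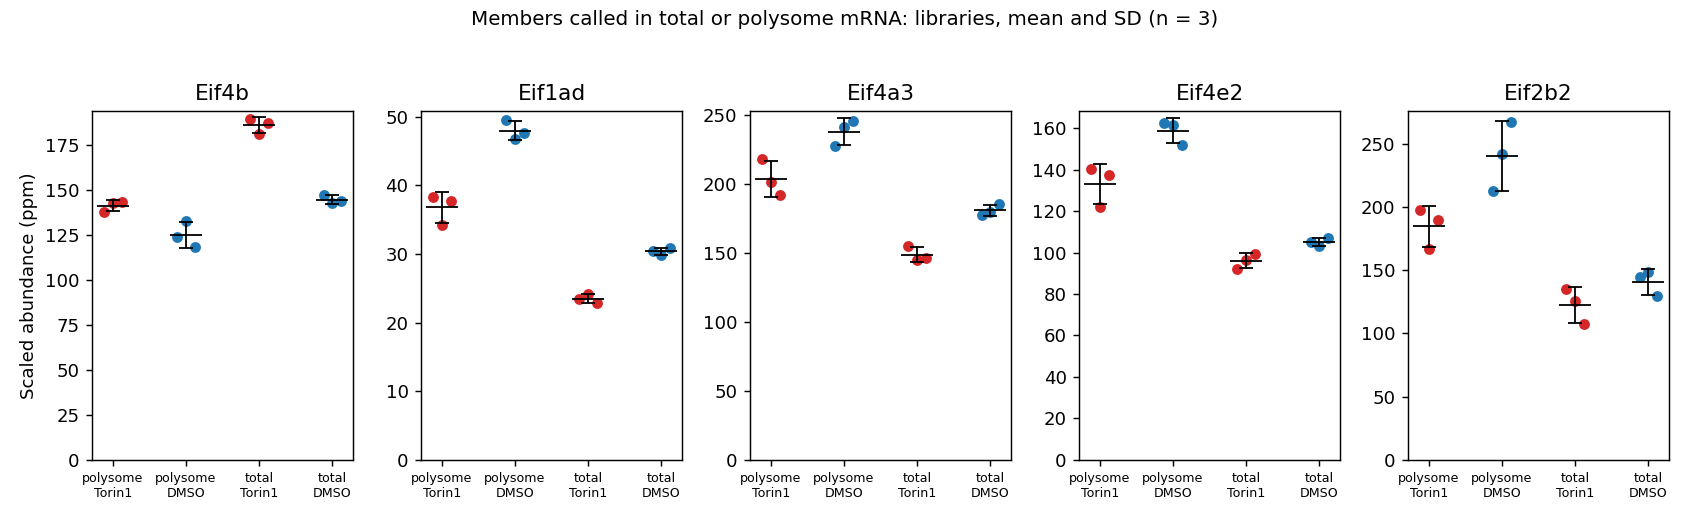
Abundance in ppm (y axis, from 0) is plotted for the 5 members that passed a Torin1 comparison, with 1 point per library, the mean as a long bar and the SD as a whisker (n = 3), Torin1 in red and DMSO in blue. Eif1ad was lower after Torin1 in both fractions without overlap, while Eif4b was higher in both, at 181 to 189 ppm against 143 to 147 ppm in total mRNA.

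By family, with the called members included in the ranges, the polysome folds were as follows. In the eIF1 and eIF1A family all 5 log2 folds were below 0, from -0.38 in Eif1ad to -0.08 in Eif1ax, the X-linked eIF1A gene, which stood at 309, 287 and 374 ppm in polysome Torin1 libraries and at 340, 299 and 382 ppm in polysome DMSO libraries. The log2 folds of the 3 eIF2 subunits ran from -0.35 to -0.04. The 5 eIF2B subunits ran from -0.38 to 0.07, the highest being Eif2b1, the alpha subunit, at 72.5, 67.9 and 87.4 ppm after Torin1 and at 72.9, 68.6 and 74.8 ppm after DMSO. Eif2b4, the delta subunit, stood at 62.9, 55.5 and 56.9 ppm after Torin1 and at 55.0, 55.3 and 65.5 ppm after DMSO. In these eIF2B genes the treatments overlapped. Eif4h, a helicase cofactor related to Eif4b, stood at 433, 389 and 384 ppm in polysome Torin1 libraries, against 413, 445 and 418 ppm in polysome DMSO libraries. Its total mRNA stood at 296, 277 and 276 ppm after Torin1 and at 306, 294 and 316 ppm after DMSO, so both fractions overlapped. The 3 eIF4G scaffolds had log2 folds from -0.13 to -0.05 in polysome mRNA and from -0.17 to -0.07 in total mRNA. Eif5, which triggers GTP hydrolysis by eIF2, stood at 164, 181 and 217 ppm in polysome Torin1 libraries, against 184, 170 and 182 ppm in polysome DMSO libraries.

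The 4 polysome calls depended on the scaling between libraries. Scaling by a median of log ratios gave the same 4, all lower, and values as deposited gave 0. With column totals alone, which shift the median expressed gene by 0.25 in this comparison on the log2 scale, 4 other calls were made and all were higher: Eif2b1, Eif3d, Eif4b and Eif5. The direction of Eif4a3 turned, to 0.02. By column totals 30 of 35 members had a fold above 0, and by the trimmed mean 9 of 35 did. The mean scaling factor of the trimmed mean was 1.005 for polysome Torin1 and 0.846 for polysome DMSO libraries. In total mRNA the same change of scaling left Eif1ad as the only call.

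Replicates of polysome Torin1 mRNA were the most spread. The median coefficient of variation over the 35 members was 12.6% in polysome Torin1 libraries, 5.37% in polysome DMSO, 4.08% in total Torin1 and 3.02% in total DMSO. In polysome Torin1 it exceeded 20% for 8 members, which were Eif1a, Eif2s1, Eif2s2, Eif2a, Eif2b3, Eif4a2, Eif4e and Eif5b. Eif2s2, the beta subunit of eIF2, stood at 103, 109 and 178 ppm there, against 177, 135 and 173 ppm in polysome DMSO libraries. Eif4e, the cap-binding protein itself, stood at 196, 195 and 280 ppm, against 300, 229 and 250 ppm in polysome DMSO libraries. In both genes replicates 1 and 2 of polysome Torin1 lay below every DMSO library and replicate 3 did not. That replicate was the highest polysome Torin1 library for 18 of 35 members, and for 36.7% of expressed genes (mean log2 ppm of at least 3). Without it 8 members were called in polysome mRNA, against 13.4% of all genes tested (5.68% up and 7.73% down). All 8 were lower: Eif1a, Eif1b, Eif1ad, Eif2b3, Eif2s2, Eif4a1, Eif4e and Eif4e2. The cause of this replicate's difference was not tested.

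Polysome association was measured as the log2 fold after Torin1 in polysome mRNA minus that in total mRNA. Of the 35 members 0 passed in limma, where 0.726% of all genes tested did, 0.0198% higher and 0.707% lower. At an unadjusted p under 0.05 there was 1 member, Eif4b, against 5.89% of all genes tested. Its difference was -0.18 ± 0.08 with a limma adjusted p of 0.814. The median over the members was 0.01, against 0.03 over all genes tested, and the members ran from -0.35 in Eif4a2 to 0.25 in Eif5b. The unadjusted 95% confidence intervals of all 35 differences lay between -0.85 and 0.81. These bounds are not limits of detection under the adjusted test. Changes in association of this size or smaller could go undetected, above all in members with a wide spread. With column totals alone the median expressed gene moved by 0.27, and 33 of 35 members were above 0 with 0 calls. The Eif4b difference then turned to 0.09. All values are shares of a library, so a loss of polysomes common to all mRNAs was not measured. In such bulk samples, fewer cells of a type and less RNA per cell cannot be told apart.

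The 8 subunits of the eIF3 octamer core, which belong to the same complex as the 5 eIF3 members here, moved more widely. In polysome mRNA 2 rose and 4 fell, with Eif3f at 71.5, 66.6 and 51.4 ppm after Torin1 and at 119, 122 and 131 ppm after DMSO (log2 fold -0.98 ± 0.11). Eif3a rose by 0.71 ± 0.08 and Eif3e fell by 0.61 ± 0.15. The Eif3e libraries overlapped, at 153, 165 and 252 ppm after Torin1 and at 309, 247 and 298 ppm after DMSO. In association 3 of 8 fell, Eif3f by 1.23 ± 0.16, Eif3h by 0.65 and Eif3k by 0.64, and none rose. Of all genes tested, 10.0% passed in polysome mRNA and 0.726% in association. The core subunits had a median association change of -0.55, against 0.01 for the 35 members. Of the eIF3 members outside the core, Eif3b, the scaffold of the module that also holds Eif3g and Eif3i, stood at 173, 156 and 134 ppm in polysome Torin1 libraries and at 135, 150 and 140 ppm in polysome DMSO libraries. Eif3d, a subunit that can bind caps, stood at 200, 168 and 179 ppm after Torin1 and at 169, 171 and 166 ppm after DMSO. Eif3g stood at 256, 217 and 217 ppm, against 252, 255 and 260 ppm. Eif3i stood at 439, 385 and 459 ppm, against 458, 430 and 493 ppm, and Eif3j1, a loosely bound subunit, at 12.9, 15.1 and 18.7 ppm, against 16.6, 17.4 and 15.4 ppm. Each of these 5 pairs of groups overlapped, and 0 of the 5 passed in any Torin1 comparison. The lists were chosen with earlier results of these data known, and the difference between them was not tested.

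**Figure D3:**
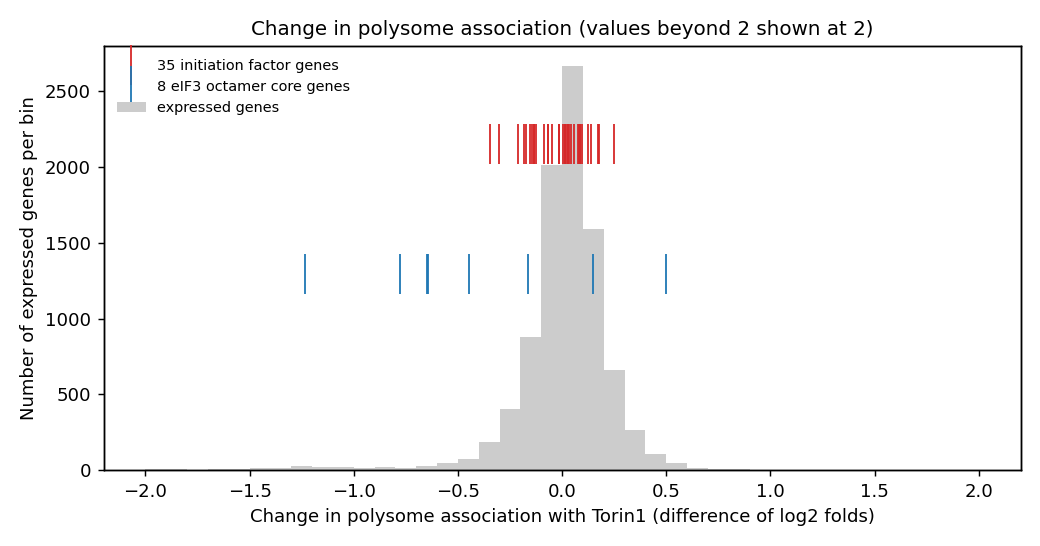
The change in polysome association with Torin1 (x axis, difference of log2 folds) is shown as a histogram of 9187 expressed genes (y axis, genes per bin), with red ticks for the 35 initiation factor genes and blue ticks for the 8 eIF3 core genes, at arbitrary heights. The red ticks lie between -0.35 and 0.25, and the blue ones between -1.23 and 0.50.

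Most members were over-represented in polysome mRNA under both treatments. Polysome against total mRNA, 28 of 35 passed in Torin1 cultures, 23 higher and 5 lower, where 39.6% of all genes tested passed, 20.4% higher and 19.2% lower. In DMSO cultures 27 passed, 23 higher and 4 lower, where 41.0% of all genes passed, 20.5% in each direction. Among genes whose deposited value reached 10 in 3 or more libraries the shares were larger. They were 51.9% in Torin1 cultures (27.4% higher and 24.5% lower) and 53.9% in DMSO cultures (27.5% higher and 26.3% lower). The median log2 fold of the members was 0.45 in Torin1 cultures and 0.48 in DMSO cultures, against -0.02 and -0.03 over all genes tested. Over expressed genes alone the median was higher, at 0.12 in Torin1 cultures and 0.11 in DMSO cultures. With column totals alone, which move the median expressed gene by -0.10 in Torin1 and -0.37 in DMSO cultures, the calls were 21 higher and 5 lower in Torin1 and 13 higher and 9 lower in DMSO.

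All 5 members of the eIF1 and eIF1A family and all 5 eIF2B subunits passed as higher in polysome mRNA under both treatments. In DMSO cultures column totals alone ended the calls of Eif1a, Eif2b1, Eif2b4 and Eif2b5 and turned Eif2b4 to -0.0063, and 2 of 6 fits without 1 library also lost Eif2b4, those without total replicate 2 or polysome replicate 3. In Torin1 cultures column totals alone ended the call of Eif1a. Eif1, which monitors the start codon, stood at 742, 606 and 723 ppm in polysome Torin1 libraries, against 477, 449 and 427 ppm in total Torin1 libraries. In DMSO it stood at 747, 722 and 774 ppm in polysome libraries, against 462, 472 and 451 ppm in total libraries. Its log2 fold was 0.61 ± 0.08 in Torin1 cultures and 0.70 ± 0.08 in DMSO cultures. Eif1a was the weakest of that family, at 0.45 ± 0.16 in Torin1 cultures (limma adjusted p = 0.0464) and 0.46 ± 0.16 in DMSO cultures (limma adjusted p = 0.0386). Its call was lost in 5 of 6 fits without 1 library in Torin1 and in 6 of 6 in DMSO, and its fold in Torin1 cultures was 0.20 without polysome Torin1 replicate 3. Among the eIF2B subunits, Eif2b3 had the largest fold, 0.91 ± 0.12 in Torin1 cultures and 0.83 ± 0.12 in DMSO cultures. The catalytic subunit Eif2b5 was at 0.52 ± 0.10 in Torin1 cultures and 0.44 ± 0.10 in DMSO cultures.

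Of the eIF2 subunits only Eif2s1, the alpha subunit that stress kinases phosphorylate, passed. It stood at 86.4, 66.5 and 111 ppm in polysome Torin1 libraries, against 48.1, 47.5 and 46.9 ppm in total Torin1 libraries (log2 fold 0.86 ± 0.15). In DMSO it stood at 101, 80.1 and 89.0 ppm in polysome libraries, against 50.7, 52.8 and 59.9 ppm in total libraries (log2 fold 0.72 ± 0.15). Eif2s3x, the X-linked gamma subunit, stood at 195, 233 and 272 ppm in polysome Torin1 libraries and at 233, 235 and 230 ppm in total Torin1 libraries, with no difference passed in either treatment. Of the alternative tRNA carriers, Eif2d, a factor of reinitiation and recycling, was higher by 0.58 ± 0.09 in both treatments. Its call in DMSO cultures was lost with column totals alone and with values as deposited. Eif2a was lower in Torin1 cultures, by a log2 fold of -0.38 ± 0.12 (limma adjusted p = 0.0228), and stood at -0.07 ± 0.12 in DMSO cultures, where it did not pass. The test of that difference gave -0.30 ± 0.17 (limma adjusted p = 0.939), and the Torin1 call was lost in 4 of 6 fits without 1 library.

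The members with the largest polysome shares relative to total mRNA were Eif5a, Eif2b3, Eif6, Eif3i and Eif2s1 in Torin1 cultures, and Eif5a, Eif3i, Eif6, Eif4a1 and Eif1b in DMSO cultures. Most neighbours in these orders differed by less than their SE. Eif5a stood at 1845, 1512 and 1649 ppm in polysome Torin1 libraries, against 784, 722 and 758 ppm in total Torin1 libraries, and its log2 fold was 1.14 ± 0.08 in Torin1 cultures and 1.05 ± 0.08 in DMSO cultures. Eif3i was at 0.86 ± 0.08 in Torin1 cultures and 1.02 ± 0.08 in DMSO cultures. Eif4a1, the main helicase of the cap-binding complex, stood at 2256, 2264 and 2797 ppm in polysome Torin1 libraries and at 2812, 2698 and 2547 ppm in polysome DMSO libraries. Its total mRNA stood at 1405, 1359 and 1377 ppm after Torin1 and at 1479, 1432 and 1454 ppm after DMSO. The cap-binding genes Eif4e and Eif4e2 were also higher in polysome mRNA under both treatments, while Eif4e3 did not pass and stood at 3.89 to 3.95 ppm in polysome Torin1 libraries, 2.91 to 4.21 ppm in polysome DMSO, 4.15 to 4.74 ppm in total Torin1 and 3.88 to 4.57 ppm in total DMSO.

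The members under-represented in polysome mRNA under both treatments were Eif5b, Eif4g3, Eif4g1 and Eif4b. Eif5b stood at 10.9, 12.5 and 17.5 ppm in polysome Torin1 libraries, against 39.9, 35.2 and 30.4 ppm in total Torin1 libraries. In DMSO it stood at 16.3, 10.6 and 14.4 ppm in polysome libraries, against 42.9, 40.5 and 42.5 ppm in total libraries. The log2 fold was -1.38 ± 0.18 in Torin1 cultures and -1.63 ± 0.18 in DMSO cultures. Eif4g3 stood at 26.5, 32.5 and 22.6 ppm in polysome Torin1 libraries, against 57.5, 59.6 and 58.1 ppm in total Torin1 libraries (log2 fold -1.12 ± 0.10), and its fold in DMSO cultures was -1.16 ± 0.10. Eif4g1, the main scaffold, was at -0.52 ± 0.08 in Torin1 cultures and -0.51 ± 0.08 in DMSO cultures. Eif4g2, a related scaffold that lacks the eIF4E-binding site, stood at 810, 834 and 972 ppm in polysome Torin1 libraries and at 816, 837 and 779 ppm in total Torin1 libraries, and did not pass. Eif4b was at -0.40 ± 0.06 in Torin1 cultures and -0.21 ± 0.06 in DMSO cultures.

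**Figure D4:**
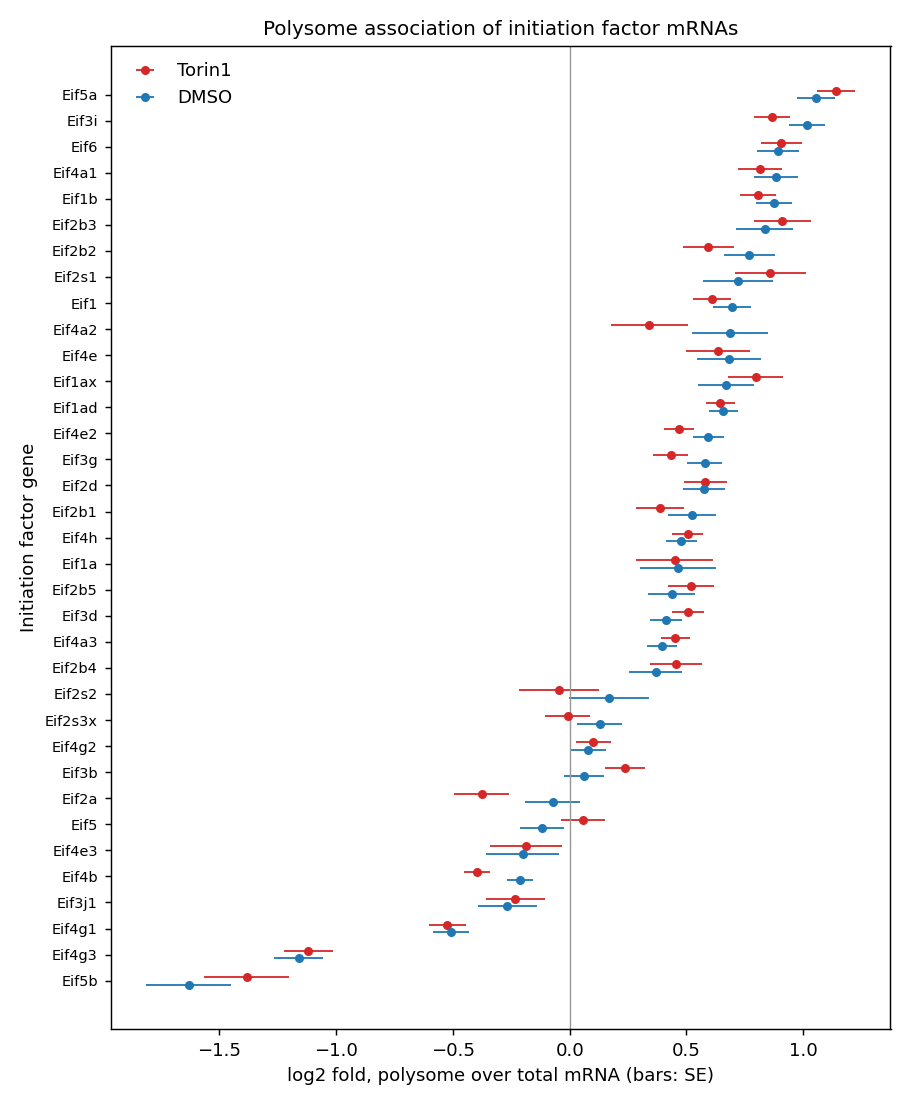
The log2 fold of polysome over total mRNA (x axis, bars are SE) is plotted for each member, Torin1 in red above DMSO in blue, in the order of the DMSO values. Points run from -1.38 in Torin1 and -1.63 in DMSO for Eif5b to 1.14 and 1.05 for Eif5a, and the colours of a member lie close together in most rows.

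Members with longer genes had lower polysome folds. Spearman's rho between the genomic span of a member and its log2 fold of polysome over total mRNA was -0.44 in Torin1 cultures and -0.52 in DMSO cultures over the 35 members. Over 8908 expressed genes with a listed span it was -0.49 in Torin1 cultures and -0.55 in DMSO cultures. These are descriptions across genes that share the same libraries, and genomic span is not transcript length.

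A further list of 20 genes held regulators of initiation factors and also Eif5a2, Eif3j2 and Eif2s3y, which are near copies of members. Of these 20 genes, 1 rose and 2 fell in total mRNA, 2 rose and 2 fell in polysome mRNA, and 0 passed in association. Their median log2 folds were -0.11, -0.11 and 0.00. Pdcd4, an inhibitor of eIF4A, rose in both, standing at 54.4, 52.2 and 52.9 ppm in total Torin1 libraries, against 35.8, 36.2 and 37.3 ppm in total DMSO libraries (log2 fold 0.54 ± 0.07). Mknk2, a kinase of eIF4E, fell by 0.63 ± 0.08 in total and by 0.65 ± 0.08 in polysome mRNA. Ppp1r15b, a subunit of the phosphatase of the eIF2 alpha subunit, fell by 0.30 ± 0.06 in total mRNA, and Eif2ak3, the eIF2 alpha kinase of the endoplasmic reticulum, rose by 0.39 ± 0.09 in polysome mRNA. Of 12 helpers of initiation, reinitiation and ribosome recycling, 1 rose and 2 fell in total mRNA, 2 fell in polysome mRNA and 1 fell in association. Their median log2 folds were -0.16, -0.19 and 0.01. Pabpc1, the cytoplasmic poly(A)-binding protein, stood at 543, 503 and 518 ppm in total Torin1 libraries, against 394, 380 and 397 ppm in total DMSO libraries (log2 fold 0.42 ± 0.09). In polysome mRNA it stood at 69.9, 92.7 and 73.8 ppm after Torin1 and at 115, 119 and 117 ppm after DMSO, and its association fell by 1.00 ± 0.13. Ddx3x, a helicase that helps scanning, fell by 0.61 ± 0.13 in total mRNA, and Larp1, a protein that binds pyrimidine-rich mRNA starts, fell by 0.37 ± 0.10 in total and by 0.39 ± 0.10 in polysome mRNA.

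Markers of cell types moved with the treatment in the same libraries. In total mRNA 3 of 8 progenitor markers rose after Torin1 (Sox2, Hes1 and Vim), 0 of 5 neuron markers passed, 4 of 9 endothelial, mural and meningeal markers rose (Cldn5, Col1a1, Col1a2 and Col3a1) and 0 of 6 microglia and blood markers passed. The endothelial, mural and meningeal sum was 55.7 to 67.0 ppm in total Torin1 libraries, against 34.4 to 40.9 ppm in total DMSO libraries. In polysome mRNA 3 progenitor markers and 3 endothelial, mural and meningeal markers rose, and that sum was 59.9 to 69.0 ppm after Torin1 and 39.2 to 47.1 ppm after DMSO. Of all genes tested, 7.39% passed in total mRNA (3.04% higher) and 10.0% in polysome mRNA (4.57% higher). No marker of these lists had a group mean of 0. Their part in the changes of Eif4b, Eif1ad, Eif4a3, Eif2b2 and Eif4e2 was not tested.

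Some members have near copies among which the authors' counting could divide reads, so their levels are uncertain. Such copies among the genes tested, as means over the 12 libraries, were Eif4a-ps4 at 24.3 ppm, Eif3j2 at 22.6 ppm, Eif2s3y at 12.8 ppm, Eif5a2 at 6.85 ppm and Eif1-ps2 at 0.709 ppm. Eif1 and Eif1b, and Eif1a and Eif1ax, are near copies within the set. No source says whether strand was used in counting, so reads of overlapping antisense genes cannot be told apart.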

How the data were processed

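Polysome and total mRNA of cortical progenitor cells were sequenced in 12 libraries, grouped by the sample titles. Per the submitters' processing notes, the tools named are STAR 2.7.9a and HTSeq 0.6.0 and the build is mm10, without role or order. The table deposited by the authors holds a signal for 53351 genes, with 0 other sample columns. Its values are whole multiples of a fixed share of the column total (within 0.011 of a step), so they are not read counts, and the depth in reads and the authors' scaling are not given in the sources used here. No counting interval could therefore be set, and replicate number limits the precision.

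Column shares were rescaled by a trimmed mean of log ratios (trimmed share 0.3 of ratios and 0.05 of abundances at each end). Tests covered the 20240 genes whose deposited value reached 1 in 3 or more libraries. limma 3.58.1 in R 4.3.3 fitted 4 group means to log2(scaled value + 1) with variances that follow abundance, and 5 comparisons were adjusted by Benjamini-Hochberg with a threshold of 0.05. On this scale the folds of low genes are understated. The fit was checked on simulated data in which all groups of a gene had the same spread. That check does not cover the unequal spread between the groups seen here. Alternatives were other scalings, filters, pseudocounts and blocks, fits of the compared groups alone, and each library left out in turn. All 35 genes are accounted for by family. Values per library are given for those past a Torin1 test and for further examples chosen after their values were seen, and up to 3 genes past the test, by size of fold, are named in each comparison from each other list of the pathway. The members and lists were chosen with earlier results of these data known. Start sites came from RefSeq's promoter table for GRCm38.p6, in which 29 members were matched by symbol. No protein or genome sequence was used here.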

Additional observations from a re-analysis of the deposited data

How the results depend on the processing

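The absence of a member call in polysome association held under every alternative run, with 0 calls each time. In total mRNA 3 members and 1496 genes passed. Column totals alone gave 1 member and 841 genes, values as deposited gave 0 and 360, and the compared groups alone gave 8 and 2655. In polysome mRNA 4 members and 2028 genes passed. Column totals alone gave 3240 genes, of which 89.9% were higher against 45.6% before, values as deposited gave 0 members and 562 genes, and the compared groups alone gave 0 and 433. No filter on low values left 2 members, and so did the replicate block. In association 147 genes passed, against 44 with values as deposited and 91 with the culture block. Column totals raised the share of higher calls there to 21.2% from 2.72%. For polysome over total mRNA the members called numbered 28 in Torin1 and 27 in DMSO cultures, and values as deposited gave 20 and 15.

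Column totals alone turned the log2 fold of Eif1b to 0.055, of Eif3g to 0.089 and of Eif4a3 to 0.022 in polysome mRNA, of Eif4b to 0.087 in association, and of Eif2b4 to -0.0063 in polysome over total mRNA of DMSO cultures. With 1 library of the compared groups left out, members called numbered 2 to 3 in total mRNA, 1 to 8 in polysome mRNA, 0 in association, 25 to 29 in polysome over total mRNA with Torin1 and 25 to 26 with DMSO. Genes called numbered 708 to 900, 1185 to 2715, 107 to 225, 6999 to 7938 and 7321 to 7697 in the same order. The lowest member count in polysome mRNA came without Torin1 replicate 2 and the highest without Torin1 replicate 3.

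Total and polysome mRNA came from portions of a lysate, but the labels do not say that a replicate number marks the same culture across groups, and the values did not show such a pairing. Deviations of same-numbered total and polysome libraries of a treatment correlated at -0.06 to 0.07 (6 pairs), and of same-numbered Torin1 and DMSO libraries of a fraction at -0.28 to 0.33 (6 pairs). The replicate block gave 3, 2, 0, 27 and 27 members in total mRNA, polysome mRNA, association, and polysome over total mRNA of Torin1 and of DMSO cultures, and the culture block gave 0, 28 and 27 in the last 3. Depth in reads is unknown, and the cause of these shifts between settings was not tested.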

Other observations

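The noncoding RNA Rn7sk stood at 2069 ppm in total Torin1 replicate 2, against 38.7 to 183 ppm in the other total libraries and 0 to 9.72 ppm in polysome libraries. That library was the highest of its group for 4 of the 35 initiation factor genes and for 30.6% of expressed genes.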
